A study of Mus musculus with 6 samples.

Results

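The genes described here are Myc and 34 genes of ribosome biogenesis or of polyamine synthesis that are known Myc targets or nucleolar proteins, 35 genes in all among 23179 gene rows. They were found by their symbols in tables of RNA sequencing values from mouse pancreatic islets. All 35 matched exactly 1 row, and all 35 had a mean of at least 1 FPKM (fragments scaled to transcript length and to the number of mapped fragments) over the 6 libraries, so all were among the 11669 rows tested. The list was chosen with differences between the knockout and wild-type libraries already known. Those differences are therefore given for its members as a description. Where members are counted by the call of the fit over all genes, the count describes them and is no test of the list, and no p is given for a member. Islets of C57BL/6J males, 10 to 14 weeks old, were either Ffar3-/- (KO) or wildtype (WT). Ffar3 encodes a cell surface receptor that binds short-chain fatty acids. Each of the 3 libraries per genotype, described as biological replicates, was made from islets selected from the pooled isolations of 2 pancreata. How the Ffar3 allele was made, and whether the mice were littermates, is not given in the sources used here.

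Myc is a transcription factor that pairs with Max and binds the E-box sequence at the promoters of many genes of growth. Ribosome biogenesis is among its best known programmes. RNA polymerase I transcribes the ribosomal RNA precursor in the nucleolus, small nucleolar ribonucleoproteins (snoRNPs) guide its chemical modification, and separate sets of assembly factors build the small and the large subunit. Beta cells, the insulin-secreting majority of islet cells, normally keep Myc low.

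Ffar3 itself lay between 4.69 and 6.68 FPKM in WT, was listed at 0 in 2 KO libraries and reached 0.105 FPKM in KO replicate 3. The islet marker Iapp was between 27415 and 36606 FPKM in all libraries, Ins2 was listed at 0 in all 6, and Ins1 in all but KO replicate 2 (43721 FPKM) and KO replicate 3 (48334 FPKM). In islets, these zeros may be failed estimates. Ins1 thus enters the FPKM sum of only 2 libraries, and shares of that sum and scalings to equal sums depend on it. Digestive enzyme and other acinar genes made up between 6.76% and 10.1% of the FPKM sum in WT. In KO replicates 1, 2 and 3 they made up 6.51%, 38.9% and 54.7%. Of 10 beta cell genes tested, 6 were lower in all KO than in all WT libraries, and of 6 alpha, delta and PP cell genes 5 were. Of all tested genes 28.5% were. The total number of fragments is unknown. Ratios between libraries of values under 0.06 FPKM put the number of fragments behind 1 FPKM in KO replicate 3 at 59.5% of that in WT replicate 1, and in the others at 89.4% to 119%.

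Myc stood apart from the rest of the list. It was higher in all 3 KO libraries, while most ribosome biogenesis genes lay close to WT. Myc (chr15:61985391-61990374 on GRCm38) was at 2.37, 2.60 and 2.88 FPKM in WT libraries. The KO libraries had 6.38, 17.7 and 17.1 FPKM, in replicate order. The groups did not overlap, and KO replicates 2 and 3 were well above KO replicate 1. Relative to the WT mean, Myc was 2.44-fold in KO replicate 1, 6.76-fold in KO replicate 2 and 6.53-fold in KO replicate 3. Its log2 difference, on the scale of log2(FPKM + 1) used throughout, was 1.91 (SE 0.34, n = 3 per group), at percentile 99.4 of all tested genes. On this scale, the changes of weakly expressed genes come out smaller than they are.

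Odc1, the ornithine decarboxylase of polyamine synthesis and a classical Myc target, had the highest level of the list. It was at 236, 197 and 188 FPKM in WT libraries and 194, 208 and 222 FPKM in the KO libraries. Its groups overlapped, and the log2 difference was 0.01 (SE 0.11).

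Markers of other cell types also differed between the libraries in which Myc was high. The summed level of the 32 acinar genes found was between 29029 and 45488 FPKM in WT. It was 27134, 271740 and 578338 FPKM in the KO libraries, with Ctrb1 the highest. Of the 31 acinar genes tested, 1 was higher in all KO than in all WT libraries, against 27.8% of all tested genes. The sum of 11 lymphocyte genes was between 8.004 and 8.82 FPKM in WT libraries and 94.97, 182 and 18.4 FPKM in the KO libraries. Of 8 lymphocyte genes tested, 7 were higher in all KO libraries, again against 27.8% of all tested genes. The B cell gene Ms4a1 and the T cell genes Cd3e and Cd3d were at 0 in every WT library, and no gene of that list was at 0 in KO. Duct genes summed to between 264 and 329 FPKM in WT and to 266, 1127 and 2367 FPKM in KO. Of 7 tested, 3 were higher and 1 lower in all KO libraries (27.8% and 28.5% of all tested genes). Sums of 8 proliferation genes were between 5.75 and 5.94 FPKM in WT libraries and 7.69, 9.87 and 5.72 FPKM in the KO libraries. The 6 macrophage genes found summed to between 79.9 and 91.4 FPKM in WT and to 105, 167 and 60.5 FPKM in KO. Among the 6 tested, 1 was higher and 2 lower in all KO libraries (27.8% and 28.5% of all tested genes). In KO replicate 1 the acinar sum was below every WT library and the duct sum within the WT range, and Myc was above every WT library. A fit that also held the mean log2 acinar level gave Myc a log2 difference of 1.24, and depends on KO replicate 1, since the other KO libraries have acinar levels far above WT. The part of lymphocyte, macrophage or duct transcripts in the Myc difference was not tested. The lymphocyte, macrophage and proliferation sums, too, were above every WT library in KO replicate 1. In RNA of whole islets, a change in the share of a cell type and a change of RNA per cell cannot be told apart.

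**Figure D1:**
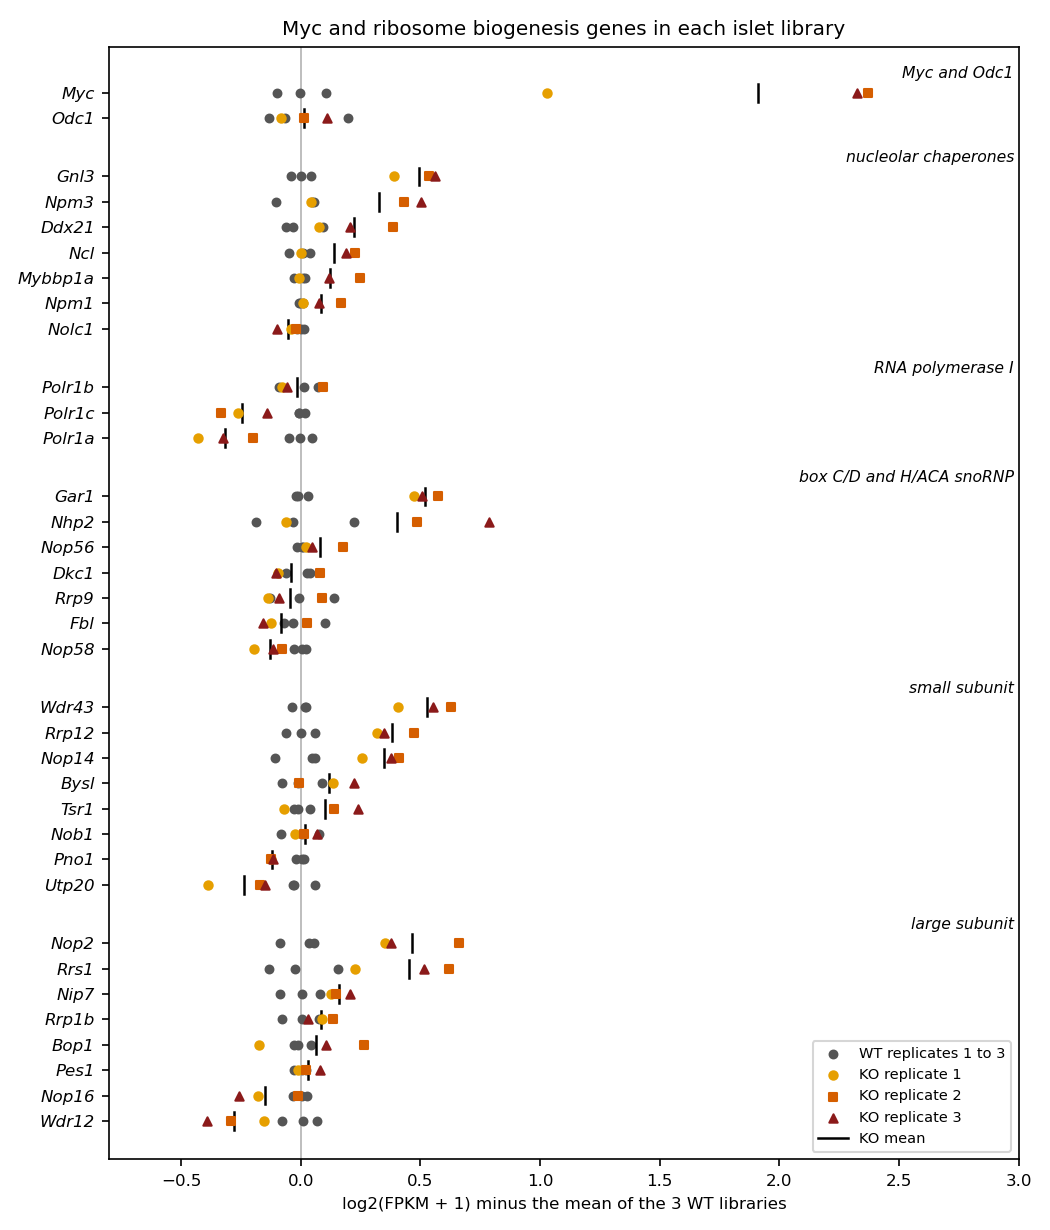
Each row is a gene, grouped by role, and each point is 1 library, placed at its log2(FPKM + 1) minus the mean of the 3 WT libraries (grey circles, WT; coloured symbols, KO replicates 1 to 3; black tick, KO mean). Myc lies far to the right, with KO replicate 1 apart from KO replicates 2 and 3, and most other genes cluster around 0.

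Of the 35 members, 11 were called at an adjusted p of 0.05 in limma over all tested genes, 8 higher and 3 lower in KO. Over all tested genes 39.9% were called, 20.3% higher and 19.6% lower. The 8 were Myc, Gnl3, Gar1, Wdr43, Nop14, Rrp12, Nop2 and Rrs1, and the 3 were Polr1a, Polr1c and Wdr12. The groups did not overlap for 18 members, as for 56.3% of all tested genes: 11 had all KO libraries above WT (27.8% of all tested genes) and 7 had all below (28.5%). The median log2 difference was 0.08 for the 35 members and -0.01 for all tested genes. For 20 members (57.1%) it was within 0.2 log2 units of 0, against 45.2% of all tested genes. The count of lower members went to 0 without WT replicate 1, 2 or 3 and to 1 without KO replicate 2, and the count of higher members went to 14 without KO replicate 1 and to 5 in the fit with the acinar level as a further term (the acinar covariate). Polr1a and Polr1c lost their calls without any 1 of the WT libraries. Wdr12 lost its call in 11 of 17 alternative fits, Rrs1 in 6, Nop14 in 3, and Rrp12 and Nop2 in 1 each, while Myc, Gnl3, Gar1 and Wdr43 were called in all 17. Nop14 lost it with the acinar covariate, with KO replicate 1 alone against WT and with libraries rescaled to equal sums outside the acinar list, Rrp12 with that rescaling and Nop2 with the acinar covariate.

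Within KO, the libraries were ordered alike for most members. KO replicate 1 was the lowest of the 3 in 27 of 35 members (77.1%), against 31.9% of all tested genes. It was below KO replicate 2 in 32 members and below KO replicate 3 in 29. The median of the members was at -0.01, 0.14 and 0.10 log2 units from WT in KO replicates 1, 2 and 3. The acinar share was also lowest in KO replicate 1, and its part in this order was not tested. The median coefficient of variation over the members was 4.89% in WT and 8.53% in KO, and over all tested genes it was 5.60% and 9.35%.

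Among 7 nucleolar proteins with broad roles in ribosomal RNA synthesis and assembly, 1 was called higher, against 20.3% of all tested genes. Gnl3 (chr14:31012433-31019152), the nucleolar GTPase nucleostemin, was at 16.3, 17.3 and 16.8 FPKM in WT libraries and 22.4, 24.8 and 25.2 FPKM in the KO libraries. Every KO library was above every WT library, with a log2 difference of 0.50 (SE 0.06). Npm1, the abundant nucleolar chaperone nucleophosmin, was at 117, 115 and 115 FPKM in WT libraries and 117, 130 and 122 FPKM in the KO libraries. All KO values were above WT, KO replicate 1 only barely, and the log2 difference was 0.09 (SE 0.06). Nolc1, a nucleolar phosphoprotein that binds snoRNPs, was at 17.3, 17.5 and 17.6 FPKM in WT libraries and 17.0, 17.2 and 16.3 FPKM in the KO libraries, a log2 difference of -0.05. Of the others, Npm3 was at 9.71 ± 0.649 FPKM in WT and at 12.5 ± 2.22 FPKM in KO (here and below, mean ± SD with n = 3), with KO replicate 1 inside the WT range. Nucleolin (Ncl), the helicase gene Ddx21 and Mybbp1a had log2 differences of 0.14, 0.22 and 0.12, and KO replicate 1 was within the WT range for all 3.

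None of the 3 RNA polymerase I subunits was called higher, and 2 were called lower. Polr1a (chr6:71909053-71984935), the largest subunit, was at 3.73, 3.89 and 4.06 FPKM in WT libraries and 2.63, 3.26 and 2.91 FPKM in the KO libraries. All KO libraries were below all WT libraries, with a log2 difference of -0.32 (SE 0.08). Polr1c, a subunit shared with RNA polymerase III, was at 22.2, 21.9 and 21.9 FPKM in WT libraries and 18.2, 17.3 and 19.8 FPKM in the KO libraries, again without overlap (log2 difference -0.24, SE 0.06). Polr1b, the second largest subunit, was at 2.75, 3.03 and 3.19 FPKM in WT libraries and 2.77, 3.25 and 2.82 FPKM in the KO libraries. Its groups overlapped, with a log2 difference of -0.02.

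Among 7 snoRNP proteins, 1 was called higher, against 20.3% of all tested genes. Gar1 (chr3:129824912-129831396), a core protein of the H/ACA particles that direct pseudouridylation, was at 10.1, 9.75 and 9.67 FPKM in WT libraries and 14.0, 15.1 and 14.4 FPKM in the KO libraries. The 3 KO values lay close together and above all WT values, with a log2 difference of 0.52 (SE 0.05). Dkc1, the pseudouridine synthase of the same particles, was at 4.61 ± 0.213 FPKM in WT and at 4.46 ± 0.397 FPKM in KO. Nhp2, another core protein and the most variable of these 7 in KO, was at 6.78 ± 1.13 FPKM in WT and at 9.51 ± 2.97 FPKM in KO, with KO replicate 1 inside the WT range. In the box C/D particles, which direct methylation, Nop58 was at 32.2, 32.99 and 33.4 FPKM in WT libraries and 28.6, 31.1 and 30.3 FPKM in the KO libraries. Nop58 was thus slightly lower in every KO library, with a log2 difference of -0.13 (SE 0.05). Nop56, the methyltransferase fibrillarin (Fbl) and the U3-associated protein Rrp9 had log2 differences of 0.08, -0.08 and -0.05.

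Among 8 factors of the small subunit, 3 were called higher and 0 lower (20.3% and 19.6% of all tested genes). Wdr43 (chr17:71615895-71659031), a component of the small subunit processome, was at 11.6, 11.5 and 11.1 FPKM in WT libraries and 15.4, 18.1 and 17.1 FPKM in the KO libraries. No library overlapped, and the log2 difference was 0.53 (SE 0.07). Nop14 was at 8.72 ± 0.622 FPKM in WT and at 11.4 ± 0.696 FPKM in KO, and Rrp12 at 5.96 ± 0.291 and 8.06 ± 0.516. Utp20, a large scaffold of the processome, lay the other way, at 2.06, 2.25 and 2.07 FPKM in WT and 1.39, 1.78 and 1.82 FPKM in KO libraries (log2 difference -0.24, SE 0.10). Tsr1, which acts late on the small subunit, was at 19.4, 20.2 and 19.2 FPKM in WT libraries and 18.6, 21.7 and 23.3 FPKM in the KO libraries. Its groups overlapped (log2 difference 0.10). The late cytoplasmic factors Pno1, Bysl and Nob1 had log2 differences of -0.12, 0.12 and 0.02, and Pno1 was below WT in all KO libraries.

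Large subunit factors included both directions. Nop2 (chr6:125131909-125144753), a methyltransferase of large subunit RNA, was at 5.54, 6.22 and 6.11 FPKM in WT libraries and 7.87, 10.0 and 8.04 FPKM in the KO libraries. The groups were apart, with a log2 difference of 0.46 (SE 0.10). Rrs1 was at 6.43 ± 0.755 FPKM in WT and at 9.22 ± 1.40 FPKM in KO. Wdr12 was lower, at 5.57, 5.99 and 6.27 FPKM in WT libraries and 5.23, 4.67 and 4.30 FPKM in the KO libraries, a log2 difference of -0.28 (SE 0.08). Its groups did not overlap. Pes1, a partner of Wdr12 and Bop1 in the same complex, was at 13.3, 13.0 and 13.5 FPKM in WT libraries and 13.1, 13.5 and 14.1 FPKM in the KO libraries. Bop1 was at 9.11 ± 0.259 FPKM in WT and at 9.65 ± 1.61 FPKM in KO. The log2 differences of Pes1 and Bop1 were 0.03 and 0.06. The remaining members, Nop16, Rrp1b and Nip7, were at -0.15, 0.08 and 0.16.

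Overlapping annotation bears on some of these values, because the strand setting of the counting is not given in the sources used here. In GENCODE M21, 17 members share exon bases with a gene on the opposite strand. The shared part exceeds 5% of the exon bases in 4 of them, and the largest is in Tsr1, with 32.3% shared with Srr, and in Bysl, with 9.37% shared with Ccnd3. The genes of 8 members hold 22 annotated snoRNA genes, among them 3 each in Gnl3, Wdr43 and Ncl and 5 in Nop56. Of these, 11 have a row of their own, and all 11 were listed at 0 in every library. The median log2 difference was 0.09 over the 8 host genes and 0.08 over the other 27.

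Promoter sequences were examined for the E-box bound by Myc and Max. RefSeq promoters on GRCm38.p6, spanning 250 bases before to 50 after the start, were found for 29 members and were missing for Myc, Npm1, Fbl, Rrp12, Bop1 and Rrs1. The letters CACGTG, which read the same on both strands, occurred in 7 of the 29 (24.1%): Nop2, Utp20, Pes1, Pno1, Mybbp1a, Tsr1 and Wdr43. They occurred in 8.09% of all 27025 genes with a promoter of this length, in 12.3% of the tested genes and in 17.9% of 134 other ribosome biogenesis factors. In 6 of the 7 the letters lay after the start. Of the 7, Nop2 and Wdr43 were among the members called higher in KO, and the other 5 were called in neither direction. Of all 29 members with a promoter, 5 were called higher, 3 lower and 21 in neither direction. Promoters of 6 members are shown from 70 bases before to 30 after the start, 5′ to 3′, with CACGTG in capitals. Wdr43 and Nop2 hold the letters and were higher in KO, Pes1 and Tsr1 hold them and had overlapping groups, and Gar1 and Gnl3 were higher in KO without them.
Wdr43, chr17:71616145-71616244, plus strand: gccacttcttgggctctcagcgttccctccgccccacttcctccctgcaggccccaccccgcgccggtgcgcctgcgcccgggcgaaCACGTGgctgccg
Nop2, chr6:125131813-125131912, plus strand: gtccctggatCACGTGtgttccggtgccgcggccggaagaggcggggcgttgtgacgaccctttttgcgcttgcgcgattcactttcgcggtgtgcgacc
Pes1, chr11:3963905-3964004, plus strand: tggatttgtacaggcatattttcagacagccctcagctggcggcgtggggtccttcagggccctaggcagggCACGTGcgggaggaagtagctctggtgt
Tsr1, chr11:74898010-74898109, plus strand: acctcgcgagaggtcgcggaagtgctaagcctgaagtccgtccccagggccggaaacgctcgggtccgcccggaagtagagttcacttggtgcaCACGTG
Gar1, chr3:129831367-129831466, minus strand: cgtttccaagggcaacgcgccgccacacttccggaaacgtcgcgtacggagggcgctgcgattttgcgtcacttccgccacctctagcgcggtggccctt
Gnl3, chr14:31019102-31019201, minus strand: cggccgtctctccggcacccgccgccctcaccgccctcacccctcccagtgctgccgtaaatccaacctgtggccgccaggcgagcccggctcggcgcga
In Nop2 the letters began 60 bases before the start, and in Wdr43 at base 18, in Pes1 at base 3 and in Tsr1 at base 25 after it. A match of letters is not a measured site, and the absence of these letters from a window says nothing about binding.

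The partners and antagonists of Myc were examined as a separate list of 20 symbols, of which 18 were found and 15 tested. In limma, 4 of the 15 rose and 5 fell (20.3% and 19.6% of all tested genes), and the median log2 difference was 0.02. Mxd1, which competes with Myc for Max and represses its targets, was at 22.3, 22.1 and 23.0 FPKM in WT libraries and 13.3, 11.7 and 10.8 FPKM in the KO libraries. All KO values were well below WT, and it fell by 0.87 on the log2 scale (SE 0.08, limma adjusted p = 0.00065). Mnt, another Max partner that represses, was at 23.1, 20.0 and 23.6 FPKM in WT libraries and 13.5, 11.8 and 11.99 FPKM in the KO libraries, without overlap. It fell by 0.79 (SE 0.08, limma adjusted p = 0.0010). Neither call was lost in the 17 alternative fits. Mlxipl, the glucose-responsive factor ChREBP, fell from 60.5 ± 6.25 to 45.0 ± 3.44 FPKM (limma adjusted p = 0.013), but not without WT replicate 1 or 3 (adjusted p = 0.058 for each).

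Fbxw7, the ubiquitin ligase that marks Myc for destruction, rose from 8.30 ± 0.480 to 11.1 ± 0.0445 FPKM (limma adjusted p = 0.0041), and not when each library was rescaled to an equal sum outside the acinar list (adjusted p = 0.054), a call that was kept with insulin rows left out of the sums too. Usp28, which opposes Fbxw7 on Myc, rose from 1.13 ± 0.0663 to 2.03 ± 0.516 FPKM (limma adjusted p = 0.026), and lost its call without any 1 of the WT libraries (0.069, 0.073 and 0.082). Usp28 lost it with the acinar covariate too (adjusted p = 0.12). Mlxip rose from 10.4 ± 0.214 to 14.2 ± 1.78 FPKM (limma adjusted p = 0.012), and not with KO replicate 1 alone against WT (adjusted p = 0.054). Max itself was at 28.2 ± 0.845 FPKM in WT and at 29.3 ± 2.51 FPKM in KO, and did not pass (limma adjusted p = 0.61). The other Myc family genes were low in every library, Mycn at or below 0.381 FPKM and Mycl1 also at or below 0.381 FPKM, and neither was tested. With 1 library left out, between 2 and 4 genes of this list rose and between 2 and 5 fell.

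**Figure D2:**
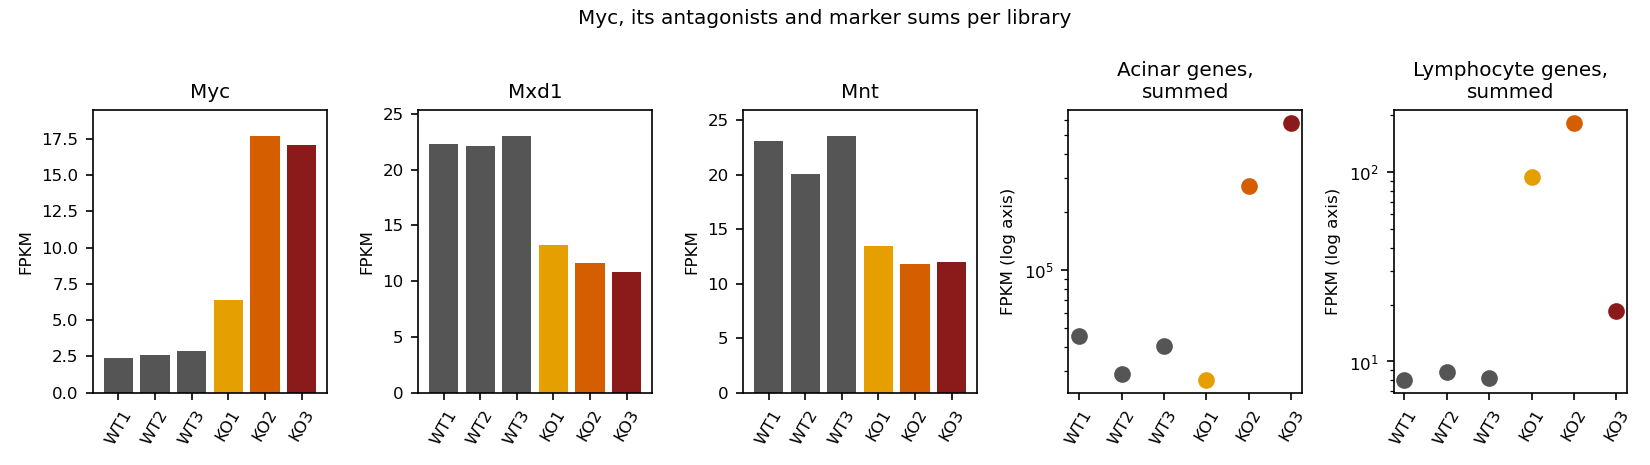
FPKM of Myc, Mxd1 and Mnt in each library (bars from 0), and the summed FPKM of the acinar and the lymphocyte marker genes (points on a log axis), with WT in grey and KO in colour. Mxd1 and Mnt are alike in the 3 KO libraries, while Myc and the acinar sum are lower in KO replicate 1 than in KO replicates 2 and 3. Among the KO libraries, the lymphocyte sum is lowest in KO replicate 3.

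Other ribosome biogenesis factors were counted in 3 groups, listed by what they are known to do. Among small subunit factors, 22 of 53 rose (41.5%) and 5 fell (9.43%) in limma, against 20.3% and 19.6% of all tested genes, and the median log2 difference was 0.23. Riok1, a kinase of late small subunit maturation, was at 5.53 ± 0.230 FPKM in WT and at 11.5 ± 0.642 FPKM in KO (log2 difference 0.94, limma adjusted p = 0.00037). The processome genes Heatr1 and Nol10 rose from 2.66 ± 0.228 to 4.64 ± 0.737 and from 3.04 ± 0.295 to 5.18 ± 0.370 FPKM. Imp3, which binds the U3 snoRNA, fell from 60.4 ± 2.72 to 45.0 ± 3.68 FPKM. Nol6 and Tsr2 fell by 0.26 and 0.19 on the log2 scale. Nol6 lost its call without WT replicate 1 or 3 (adjusted p of 0.061 and 0.083), and Tsr2 without any 1 library other than KO replicate 1 (adjusted p from 0.058 to 0.13). Tsr2 lost it with the acinar covariate too (adjusted p = 0.16). In KO replicate 1 the median of this list was 0.18 above WT, and 62.3% of its genes were above every WT library, against 38.6% of all tested genes. The count of rises was 12 without WT replicate 1, 14 without WT replicate 3, 13 with the acinar covariate, 11 with KO replicate 1 alone against WT, and 8 with equal sums outside the acinar list. When insulin rows were also left out of the sums, 18 rose and 2 fell. The count of falls was 1 without WT replicate 1 or 3, 2 without WT replicate 2 or KO replicate 2, and 3 without KO replicate 3.

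Of 59 large subunit factors tested, 18 rose (30.5%) and 3 fell (5.08%) in limma, against 20.3% and 19.6% of all tested genes. Their median log2 difference was 0.07. Eif6, which keeps the large subunit from joining too early, rose from 34.1 ± 2.29 to 53.8 ± 3.92 FPKM (log2 difference 0.64, limma adjusted p = 0.0015). The nucleolar GTPase gene Gtpbp4 rose from 14.5 ± 1.45 to 23.1 ± 1.88 FPKM and Noc3l from 3.33 ± 0.289 to 5.30 ± 0.399. The falls were Zfp622, from 40.7 ± 0.650 to 25.4 ± 2.98 FPKM, the helicase gene Ddx31, from 9.55 ± 0.296 to 6.65 ± 0.177, and Zfp593, from 4.66 ± 0.252 to 3.44 ± 0.124, the last not with KO replicate 1 alone against WT (adjusted p = 0.056). The count of rises depended on single libraries. It was 5, 9 and 6 without WT replicates 1, 2 and 3, 9 and 10 without KO replicates 2 and 3, 6 with KO replicate 1 alone, 5 with the acinar covariate and 4 where sums outside the acinar list were made equal. In that scaling 57.1% of the calls were rises, against 85.7% in the reported fit. With insulin rows also left out of the sums, 14 rose and 3 fell (82.4% rises).

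The last list held factors of RNA polymerase I, snoRNPs, the RNA exosome and ribonuclease P. Of 43 tested, 2 rose (4.65%) and 5 fell (11.6%) in limma, against 20.3% and 19.6% of all tested genes. The median log2 difference was -0.06. Rpp38, a protein of ribonucleases P and MRP, fell from 12.7 ± 0.576 to 6.75 ± 0.919 FPKM (log2 difference -0.83, limma adjusted p = 0.0013). Exosc7 of the exosome fell from 15.8 ± 0.187 to 12.7 ± 0.477 FPKM. Nop10, the smallest H/ACA protein, fell from 54.4 ± 1.92 to 44.4 ± 4.87 FPKM, but not without WT replicate 1, 2 or 3 or KO replicate 2 (adjusted p of 0.11, 0.060, 0.10 and 0.074). Ruvbl1 rose to 10.3 ± 0.195 FPKM, from 7.83 FPKM as the median of the WT libraries, and not with equal sums outside the acinar list (adjusted p = 0.12), a call kept with insulin rows left out too. Ttf1, the terminator protein of RNA polymerase I, rose from 3.48 ± 0.0695 to 4.39 ± 0.280 FPKM, and lost its call without WT replicate 1, 2 or 3 or KO replicate 3 (adjusted p of 0.090, 0.064, 0.080 and 0.055). Ttf1 lost it with the acinar covariate too (adjusted p = 0.11). Where sums outside the acinar list were made equal, 0 rose and 5 fell, and with insulin rows also left out 4 rose and 5 fell. With 1 library left out, between 1 and 5 rose and between 2 and 7 fell.

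**Figure D3:**
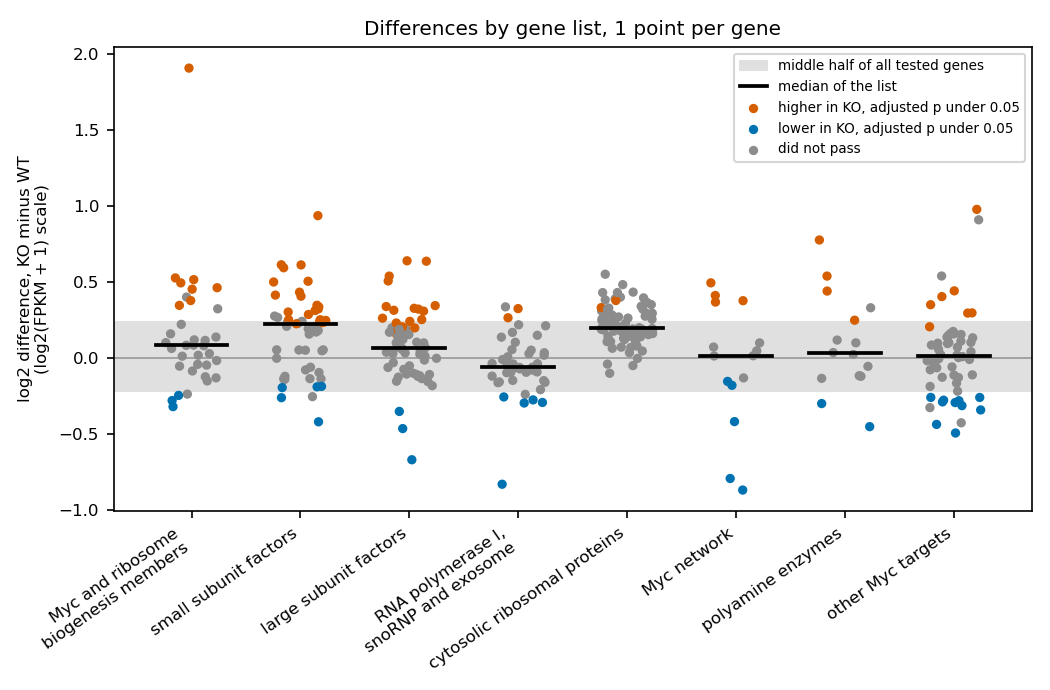
Each point is a gene, placed at its log2 difference between KO and WT and coloured by its limma call, with the median of each list as a black bar and the middle range of all tested genes (between the outer quartiles) shaded. The small subunit factors sit highest among the assembly factor lists, with a median of 0.23, and the ribosomal proteins form a tight group around 0.20 with few calls.

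The ribosomal proteins themselves, the products that these factors assemble, were among the most abundant transcripts, with a median WT level of 408 FPKM over 81 genes. Of these, 2 rose (2.47%) and 0 fell in limma, against 20.3% and 19.6% of all tested genes. At an unadjusted limma p under 0.05 the counts were 15 and 0 of 81, and 2968 and 3038 of all 11669 tested genes. The median log2 difference of the ribosomal proteins was 0.20. It was 0.01, 0.20 and 0.41 in KO replicates 1, 2 and 3, and KO replicate 1 was the lowest of the 3 in 78 of 81 genes (96.3%). The acinar share of those libraries, 6.51%, 38.9% and 54.7%, had the same order. The median was 0.03 in the fit that held the acinar level, which depends on KO replicate 1, and the part of acinar cells in this difference was not tested. Without KO replicate 1, 52 ribosomal protein genes rose. Rps19 was at 241 ± 5.14 FPKM in WT and at 317 ± 48.4 FPKM in KO (limma adjusted p = 0.040), and Rps15a at 24.0 ± 0.130 and 30.7 ± 4.36 (limma adjusted p = 0.037). Both calls were lost without any 1 library other than KO replicate 1, with adjusted p from 0.077 to 0.13. With the acinar covariate the adjusted p was 0.10 for Rps19 and 0.15 for Rps15a. Near-identical pseudogenes make single values of this family uncertain.

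**Figure D4:**
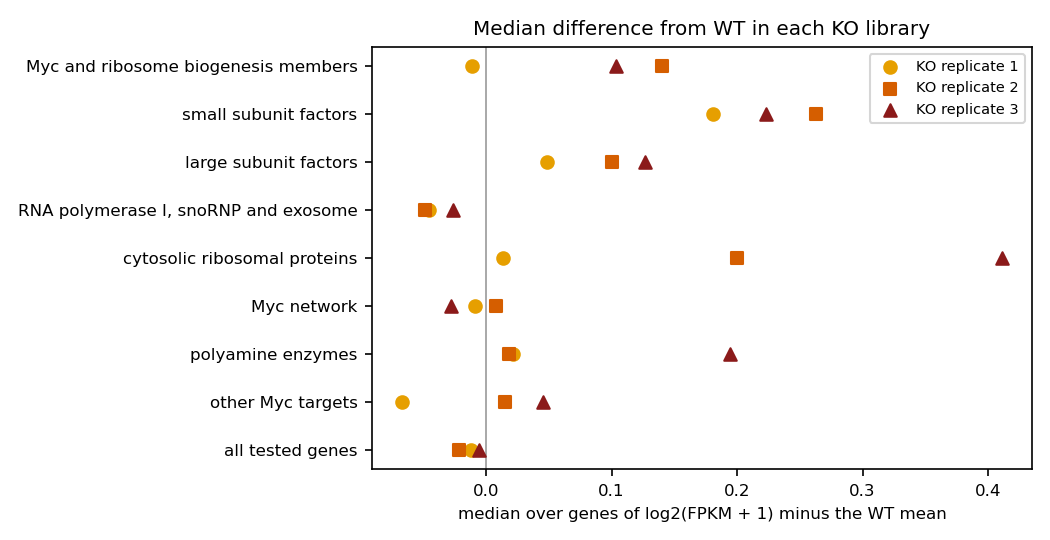
For each list, the median over its genes of log2(FPKM + 1) minus the WT mean, shown separately for KO replicates 1, 2 and 3. The ribosomal proteins spread from 0.01 to 0.41 across the KO libraries, whereas the small subunit factors lie between 0.18 and 0.26 in all 3.

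Polyamine genes other than Odc1 gave 4 rises (26.7%) and 2 falls (13.3%) among 15 tested, against 20.3% and 19.6% of all tested genes. Smox, the spermine oxidase, rose from 4.68 ± 0.0615 to 8.95 ± 2.39 FPKM (log2 difference 0.78, limma adjusted p = 0.013), and without WT replicate 3 it was just above the threshold of 0.05. Slc3a2, listed with polyamine transport and better known as the heavy chain of amino acid transporters, rose from 95.6 ± 5.09 to 140 ± 11.6 FPKM (limma adjusted p = 0.0035). Sat1, which acetylates spermine and spermidine, rose from 25.9 ± 0.347 to 36.1 ± 7.23 FPKM, and lost its call without any 1 library other than KO replicate 1 (adjusted p from 0.081 to 0.11). Sat1 lost it with the acinar covariate too (adjusted p = 0.19). The remaining rise was Amd1, also of polyamine synthesis, from 35.5 ± 1.26 to 42.6 ± 4.20 FPKM without overlap. Its log2 difference was 0.25 (limma adjusted p = 0.041), and how this call held in the alternative fits is not given here. Adc fell from 2.103 ± 0.141 to 1.28 ± 0.284 FPKM and Mtap from 8.50 ± 0.574 to 6.73 ± 0.542. Adc lost its call without WT replicate 1, 2 or 3 or KO replicate 2 (adjusted p of 0.073, 0.073, 0.058 and 0.053), and Mtap without WT replicate 1 or 3 or KO replicate 2 (0.075, 0.094 and 0.060). Both Adc and Mtap lost it with the acinar covariate too (adjusted p = 0.11 for each). The synthases beside Odc1, Srm and Sms, were at 44.6 ± 3.64 and 45.8 ± 8.47 FPKM and at 5.09 ± 0.233 and 5.26 ± 0.628 FPKM in WT and KO, and did not pass. With 1 library left out, between 1 and 5 genes of this list rose and between 0 and 4 fell.

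Other commonly cited Myc targets, from nucleotide synthesis to translation and mitochondrial genes, moved in both directions. Of 58 tested, 7 rose (12.1%) and 10 fell (17.2%) in limma, against 20.3% and 19.6% of all tested genes. The median log2 difference was 0.02. Ldha, the lactate dehydrogenase of glycolysis, rose from 9.60 ± 0.647 to 20.4 ± 5.74 FPKM (log2 difference 0.98, limma adjusted p = 0.0073), and the mitochondrial transcription factor gene Tfb2m from 9.07 ± 0.377 to 12.7 ± 1.25. The coactivator gene Pprc1 rose from 5.06 ± 0.276 to 7.07 ± 1.05 FPKM, and lost its call without any 1 library other than KO replicate 1 (adjusted p from 0.055 to 0.086). Pprc1 lost it with the acinar covariate too (adjusted p = 0.099). The arginine methyltransferase genes Prmt1 and Prmt5 fell from 45.7 ± 0.966 to 33.6 ± 2.39 and from 9.18 ± 0.356 to 7.05 ± 0.648 FPKM. Prmt5 lost its call without WT replicate 3 (adjusted p = 0.059) and with the acinar covariate (adjusted p = 0.061). Ppat, of purine synthesis, fell from 54.7 ± 9.79 to 38.7 ± 7.42 FPKM (limma adjusted p = 0.048), and lost its call in 14 of 17 alternative fits, with a log2 difference of -0.20 in KO replicate 1. The split of calls moved with the processing: it was 4 rises and 2 falls without WT replicate 3, 5 and 3 without WT replicate 1, 12 and 11 without KO replicate 1, 6 and 4 when sums outside acinar and insulin rows were made equal, 3 and 9 with equal sums outside the acinar list alone, and 6 and 14 after quantile normalization.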

How the data were processed

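RNA of islets was sequenced in 3 WT and 3 KO libraries. TopHat2 2.0.8b, Cuffdiff 2.1.1 and build mm10 are named per the submitters' processing notes. Cuffdiff writes FPKM, and the authors' deposited values were read as that unit, which the files do not name. Annotation, strand setting and scaling: not given in the sources used here. Median-of-ratios factors were between 0.995 and 1.00, while FPKM sums ran from 416935 in KO replicate 1 to 1056340 in KO replicate 3. Nothing says how far the libraries share animals or litters, so the p-values measure the spread between these libraries.

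Rows with a mean of at least 1 FPKM were tested on log2(FPKM + 1) with limma 3.58.1 in R 4.3.3. The model held the genotype alone, variances were moderated with a mean trend, tests were two-sided, and p-values were adjusted over all 11669 rows by Benjamini-Hochberg. The residual degrees of freedom were 4. The method was tested on simulated data with independent noise for each gene. Such data hold no shared shift in cell content, so the test cannot give error rates for these libraries. Positions came from GENCODE M21 and promoters from RefSeq, both on GRCm38, the assembly that mm10 denotes. Python 3.11.15, pandas 2.3.3 and matplotlib 3.10.9 were used.

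The members and all gene lists were chosen with earlier results of these data known. Values per library are given for Myc, Odc1 and, in each role group, the members of the largest and smallest log2 difference and the highest mean. Each pathway list is shown by up to 3 rises and 3 falls that were largest among those past the threshold without overlap. Other genes of these lists are named for their known role and were chosen after their values were seen. The alternatives tried are given with their effect in the closing section.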

Additional observations from a re-analysis of the deposited data

How the results depend on the processing

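Alternatives were a pseudocount of 0.1, a minimum mean of 5 FPKM or none, other scalings, a robust variance prior, the acinar level as a covariate, the replicate block, each library left out, and KO replicate 1 alone against WT. Equal sums outside acinar and insulin rows were chosen after seeing the data. With equal sums outside the acinar list, 1284 of all genes rose, 12 other ribosome biogenesis factors rose (42 in the reported fit) and 0 ribosomal proteins did; 10 of those factors fell, the median of the members was -0.00, and the median of all genes moved from -0.01 to -0.09. Those sums hold Ins1, listed at 0 in 4 libraries; with insulin rows left out too, 2191 genes and 36 other factors rose, 10 of these factors fell, and the median of the members was 0.09. With the acinar covariate 1202 genes fell, 5 members were called higher, 19 other factors rose, and 0 ribosomal proteins did. For KO replicate 1 alone 1267 genes fell, 18 other factors rose and 0 ribosomal proteins did. Ribosomal protein rises were 2 as reported, 0 with no filter, 10 with equal sums outside acinar and insulin rows, 16 after quantile normalization, 5 with a robust prior and 1 with the replicate block.

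With 1 library left out, 1381 to 2890 genes rose and 1100 to 2837 fell, 7 to 14 members were called higher and 0 to 3 lower, 19 to 52 other factors rose and 6 to 15 fell, and 0 to 52 ribosomal proteins rose. The median of the members was between 0.04 and 0.11. The fits without 1 library have fewer samples; beyond that, the cause of these changes was not tested. In KO replicate 1 alone the single KO library is assumed to vary like WT. Replicate numbers are shared between the groups. Across genes, deviations from the group mean correlated at -0.21, -0.09 and 0.03 in same-numbered pairs. In differently numbered pairs they correlated between -0.16 and 0.20. Deviations from means of 3 libraries cannot decide whether same-numbered libraries share a batch. With the replicate block 1988 genes rose and 1877 fell, with 9 members higher and 2 lower.

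No called gene among the 71 named with a value, which leave out Amd1, changed sign in these alternatives. Only the other scalings and the acinar covariate could have changed a sign. The groups did not overlap for any of these called genes, which fixed the sign in fits on fewer libraries and with the other pseudocount. The filters, the robust prior and the replicate block left the differences between KO and WT as they were. Low FPKM in KO replicate 3 rest on the fewest fragments, which limits genes near 2 to 5 FPKM, such as Polr1a, Utp20 and Rrp1b.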
